A study of Ambystoma mexicanum with 7 samples.

Results

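Unplaced sequences are stretches of a genome assembly that have not been assigned to a chromosome. In large, repeat-rich genomes such as that of the axolotl, Ambystoma mexicanum, they can hold genes and regulatory elements as well as repeated sequence, and they are often left out of genome-wide summaries. In ATAC-seq the Tn5 transposase cuts open chromatin, so a peak marks an accessible stretch of DNA wherever it lies. The peaks described here are those on sequences whose name is not a chromosome arm (chr, a number, and p or q, with or without a segment suffix). They were chosen by name alone and by no peak value. All carried names of the form C and a number, and there were 19471 of them among 702981 peaks in 4 lists.

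The series profiled 7 samples of wild type axolotl limb tissue in 3 groups: 2 of blastema with wound epidermis, 2 of systemically activated limb, and 3 of intact, homeostatic limb. The blastema is the mound of progenitor cells that forms on a limb stump, and in systemic activation cells of uninjured limbs enter the cell cycle after an amputation elsewhere on the body. All groups were dissociated, and live cells with a 4C DNA content, that of cells which have copied their genome, were sorted, 10000 per reaction. For the limb groups the series design gives 14 days after amputation. The day of the blastema samples and the age of the animals are not stated in the sources used here, nor is it said whether samples came from separate animals.

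The authors' peaks came as 1 list per group and 1 over all samples. No sample had values of its own, so nothing below has a replicate, no difference between conditions could be tested, and no p is given. Intervals in brackets are exact binomial 95% intervals over peaks. They cover counting error only, and peaks on 1 sequence are not independent. Read totals were not used here, and the lowest background of a list served as a rough mark of its depth. It was 2.49 fragments per base for blastema, 0.375 for systemically activated limb, 0.529 for intact limb and 4.22 over all samples. The all-sample value is above the sum of the 3 group values, so the mark does not add up as reads would. The fold, −log10 q and pileup of a peak are the authors' own or follow from them, and are compared within a list. Where values of several lists are printed for 1 site, they are not set against each other, as the depth mark differs between lists. Longer lists therefore need not mean more open chromatin.

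Unplaced sequences held a similar small share of each group list. They carried 4851 of 168368 blastema peaks (2.88%, 2.80 to 2.96), 484 of 17326 systemically activated peaks (2.79%, 2.55 to 3.05) and 733 of 25843 intact peaks (2.84%, 2.64 to 3.05). In the all-sample list the number was 13403 of 491444 (2.73%, 2.68 to 2.77). The interval of the systemically activated share contains the shares of the other group lists. Each share lay inside the range over the 28 single arms, which in blastema ran from 0.822% on 14p to 7.40% on 3q. By covered bases the shares were 2.83% in blastema (2.06 Mb), 2.74% in systemically activated limb (0.178 Mb) and 2.75% in intact limb (0.291 Mb).

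**Figure D1:**
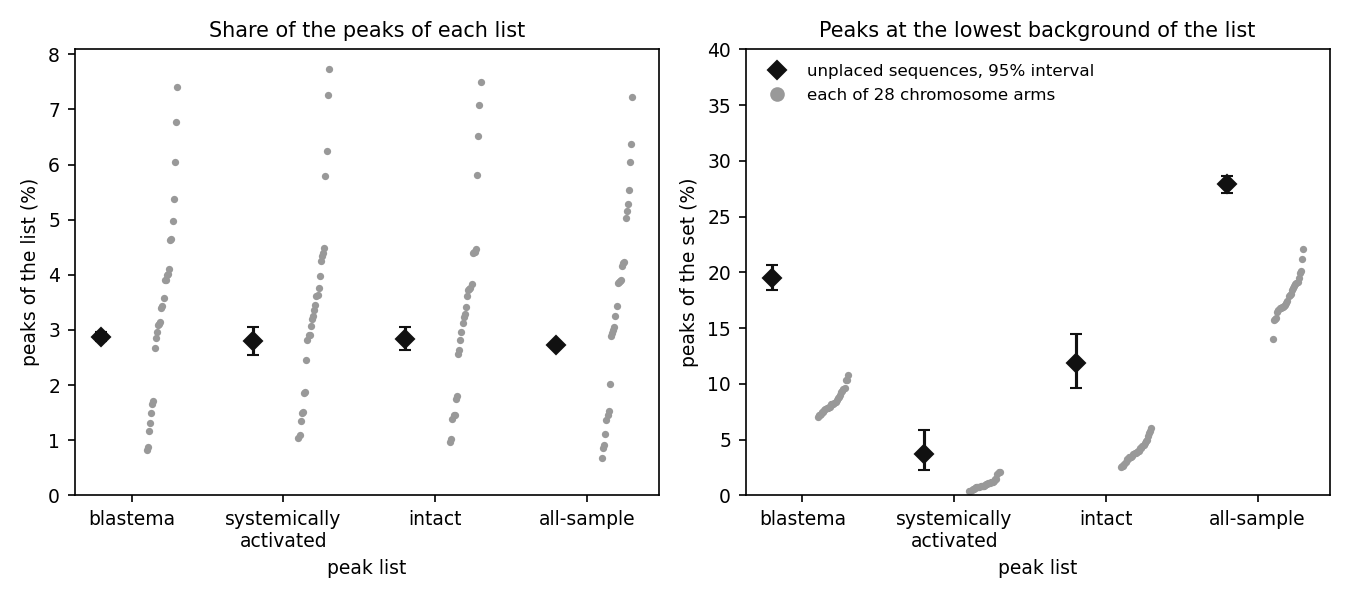
Left, percent of the peaks of each list that lie on unplaced sequences (black diamonds, bars for exact 95% intervals) and on each of the 28 chromosome arms (grey points). Right, percent of the peaks of each set whose background equals the lowest of the list: the unplaced value, 19.5% in blastema, stands above all 28 arms in every list.

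The peaks were spread thinly over many sequences. Across the 4 lists 3340 unplaced sequences had a peak, 1910 of them in a group list. Blastema peaks lay on 1854 sequences, systemically activated peaks on 385 and intact peaks on 557. Of these sequences, 945 (51.0%) held a single blastema peak, 318 (82.6%) a single systemically activated peak and 440 (79.0%) a single intact peak. No sequence dominated a list: the 10 with the most peaks held 5.32% of the unplaced blastema peaks, 8.68% of the systemically activated ones and 7.50% of the intact ones.

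Full lengths of these sequences were not used here. The end of the last peak in any list, called the extent below, gives a lower bound. It ranged from 283 bases on C0189179 to 1577646 bases on C0024503, with a median of 41.6 kb, and summed to 361 Mb. Since it is set by the peaks, a short extent can also belong to a longer sequence that has peaks only near its start. The 567 sequences with an extent over 200 kb carried 2530 (52.2%) of the unplaced blastema peaks, 257 (53.1%) of the systemically activated and 366 (49.9%) of the intact peaks.

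On these long sequences peaks stood closer together than on the arms. Blastema had 11.5 peaks per Mb of extent there, against 6.12 per Mb on the arms. Systemically activated limb had 1.17 against 0.630, and intact limb 1.66 against 0.940. The median gap between neighbouring summits was 27672 bases on the long unplaced sequences against 58060 bases on the arms in blastema. It was 86439 against 640886 bases in systemically activated limb and 73889 against 424195 bases in intact limb. The limb medians on long sequences rest on 78 and 135 gaps. Only sequences with neighbouring peaks of a list give a gap. Of the 567 long sequences, 388 had no systemically activated peak and 336 no intact peak. These densities are raised by the choice of sequences that have peaks and by the use of the last peak as the end. Gaps also cannot exceed a sequence's length. How much of the difference this accounts for was not tested.

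At full list length, sharing between the lists was close to that of the whole lists. Of the 484 unplaced systemically activated peaks, 457 (94.4%, 92.0 to 96.3) were overlapped by a blastema peak by at least 1 base, against 93.9% of all systemically activated peaks. An intact peak overlapped 362 (74.8%, 70.7 to 78.6), against 75.9% of the whole list. Of the 733 unplaced intact peaks, 647 (88.3%, 85.7 to 90.5) shared bases with a blastema peak and 353 (48.2%, 44.5 to 51.8) with a systemically activated one, against 89.9% and 50.2% of the whole list. Of the 4851 unplaced blastema peaks, 445 (9.17%, 8.38 to 10.0) were overlapped by the systemically activated list and 629 (13.0%, 12.0 to 13.9) by the intact list, against 9.23% and 13.2%. Each of the 6 intervals contains the share of the whole list, and each share lies within the range of the 28 single arms. The blastema list is the longest of the group lists and, by its lowest background, the deepest. Shares counted into it and out of it therefore cannot be set against each other. With every list cut to the 17326 peaks of highest −log10 q, 68.8% (64.5 to 72.9) of unplaced systemically activated peaks were in blastema and 65.5% (61.1 to 69.7) in intact limb, against 66.9% and 66.4% on the arms. Of the 500 unplaced intact peaks left, 72.6% (68.5 to 76.5) were in blastema and 61.4% (57.0 to 65.7) in systemically activated limb, against 70.7% and 64.8% on the arms. Of the 563 unplaced blastema peaks left, 56.8% (52.6 to 61.0) were in systemically activated limb and 63.1% (58.9 to 67.1) in intact limb. These were below the 63.3% and 68.2% on the arms, which lie outside both intervals. The range over single arms was not taken at equal length, so single arms may be as low.

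**Figure D2:**
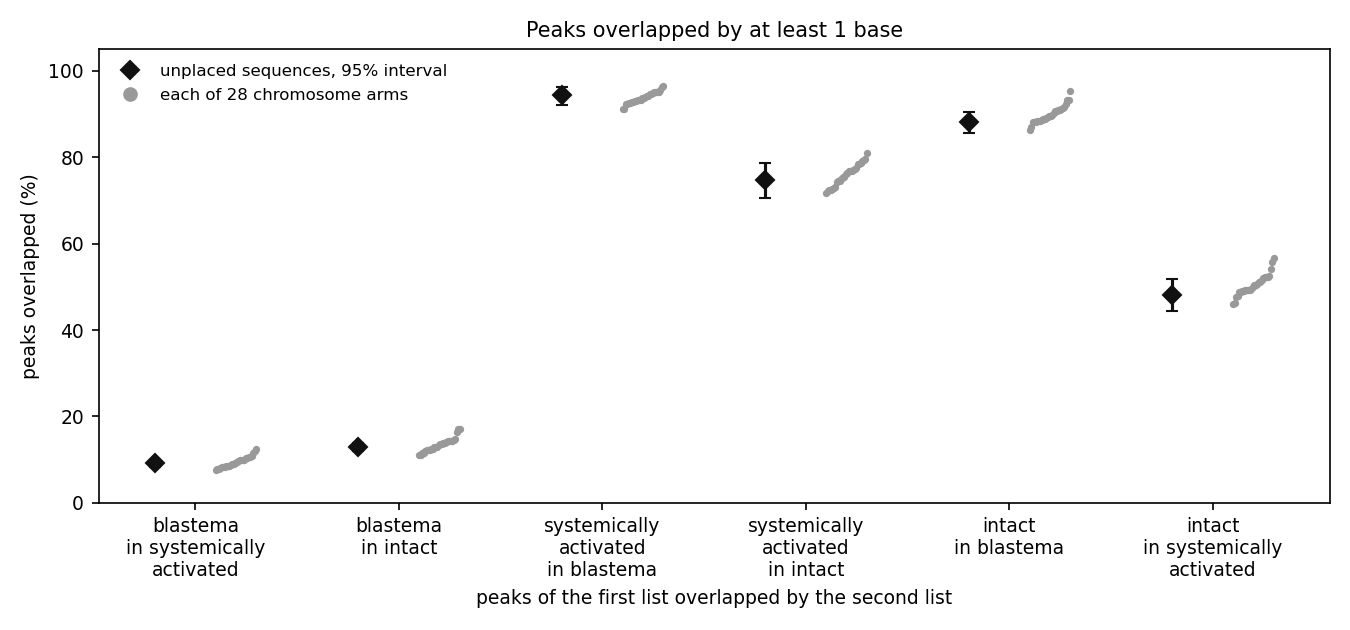
Percent of the peaks of one list that a second list overlaps by at least 1 base, for unplaced sequences (black diamonds, bars for exact 95% intervals) and for each of the 28 chromosome arms (grey points). In all 6 pairs the unplaced value lies among the arms, as with 94.4% of systemically activated peaks in blastema.

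Overlap followed strength within a list. In the strongest tertile of the whole list by −log10 q, all 170 unplaced systemically activated peaks and all 255 intact peaks were overlapped by a blastema peak. On the arms these shares were close to that, at 99.4% and 99.6%. In the weakest tertile the shares were 88.6% (82.8 to 93.0) and 72.6% (66.4 to 78.2), beside 86.0% and 77.3% on the arms. Among unplaced blastema peaks of the strongest tertile, a systemically activated peak overlapped 22.9% (21.0 to 24.9) and an intact peak 31.4% (29.3 to 33.6). On the arms these were 26.0% and 36.1%, above both intervals. The range over single arms was not taken within tertiles. For the 445 unplaced blastema peaks that a systemically activated peak overlapped, the median pileup was 53 fragments and the median width 851 bases. The other 4406 had 19 fragments and 306 bases.

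Summit distances were measured between overlapping peaks, a choice that itself keeps them short. The median distance between summits was 74 bases for 457 unplaced systemically activated peaks and their blastema partners, against 82 bases on the arms. It was 87 bases between systemically activated and intact summits, against 80 on the arms, and 72 between blastema and intact summits, against 77. Summits lay within 50 bases of each other for 40.9% of systemically activated and blastema pairs, 35.9% of systemically activated and intact pairs and 38.8% of blastema and intact pairs, against 37.3%, 37.5% and 38.8% on the arms.

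Merging the 3 group lists gave 4955 unplaced regions. All 3 lists held 350 of them (7.06%, 6.37 to 7.81), beside 7.42% of the merged regions on the arms. A region joins all peaks that overlap or touch, so its lists need not have a base in common. Blastema and intact limb without systemically activated limb held 274 (5.53%, beside 5.47% on the arms), and blastema and systemically activated limb without intact limb 92 (1.86%, beside 1.61%). Blastema alone had a peak in 4129 (83.3%, beside 83.4% on the arms), systemically activated limb alone in 24 (0.484%, beside 0.550%) and intact limb alone in 83 (1.68%, beside 1.44%). Blastema also had the highest value of the rough depth mark among the group lists. Any part of depth in its large count was not tested. Regions of all 3 lists had a median width of 931 bases, those of blastema alone 298 bases, those of systemically activated limb alone 216.5 bases and those of intact limb alone 200 bases. Of the regions in all 3 lists, 350 of 350 also had an all-sample peak, against 3942 of 4129 in blastema alone, 22 of 24 in systemically activated limb alone and 63 of 83 in intact limb alone. These counts were not taken for regions on the arms. By single peaks, the all-sample list overlapped 96.1% of unplaced blastema, 99.6% of systemically activated and 97.3% of intact peaks. On the arms it overlapped 95.6%, 99.1% and 98.4%. In intact limb the arm share was above the unplaced interval (95.8 to 98.3), and 27 of the 28 single arms were above the unplaced share. In blastema the arm share, 95.55%, was just below the interval (95.56 to 96.67). All 3 unplaced shares lay within the range of the single arms.

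Both limb lists shared 3 unplaced regions that had no blastema peak, or 0.0605% of the merged regions, beside 111 regions (0.0665%) on the arms. On C0012496 from 162472 to 162771 the summit pileup was 7 fragments in systemically activated limb and 8 in intact limb. On C0040762 from 264845 to 265349 it was 8 in systemically activated and 13 in intact limb. On C0136682 from 7784 to 8057 it was 8 in systemically activated and 6 in intact limb. All 3 had an all-sample peak, with pileups of 23, 40 and 26 fragments. The limb pileups were below the medians of unplaced peaks, 13 fragments in systemically activated limb and 14 in intact limb. The intact value of 13 on C0040762 was close to its median. The all-sample pileups were above the all-sample unplaced median of 22. In all, 56 of the 1910 sequences with a peak in a group list had a limb peak and no blastema peak. They held 13 of the 484 unplaced systemically activated and 46 of the 733 unplaced intact peaks, with a median pileup of 7 fragments in both lists. Over all unplaced peaks, a blastema peak overlapped 94.4% of systemically activated and 88.3% of intact peaks. The whole lists had 93.9% and 89.9%.

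Over all unplaced peaks, background at the summit was lower in the median than on the arms. Its median was 4.32 fragments per base on unplaced sequences against 5.08 on the arms in blastema, and 1.38 against 1.62 in systemically activated limb. It was 1.72 against 2.10 in intact limb and 5.82 against 6.54 in the all-sample list. In each of the 4 lists the unplaced median was below the median of all 28 single arms. Median pileups were 20 against 21 fragments in blastema, 13 against 14 in systemically activated limb, 14 against 16 in intact limb and 22 in both sets of the all-sample list. In both limb lists the unplaced median pileup was below that of all 28 arms, and in blastema it was within their range. On extents over 200 kb the median pileup was 14 in systemically activated limb and 16 in intact limb, as on the arms. Median widths were 325 against 329 bases in blastema, 322 against 329 in systemically activated limb and 327 against 350 in intact limb.

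Many unplaced peaks stood on the lowest background of their list. That was so for 947 of 4851 blastema peaks (19.5%, 18.4 to 20.7), against 8.42% on the arms and 10.8% on the highest single arm. In systemically activated limb it was 18 of 482 peaks with a solved background (3.73%, 2.23 to 5.84), against 0.969% on the arms, and in intact limb 87 of 731 (11.9%, 9.64 to 14.5), against 3.85%. The share was higher on short extents. Where the extent was up to 20 kb, 58.0% of blastema, 13.3% of systemically activated and 34.7% of intact peaks were on the lowest background. Over 200 kb these shares were 7.43%, 0% and 2.46%.

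Fold enrichment, the pileup plus 1 over the background plus 1, was higher in the median in each list, at 3.81 against 3.62 on the arms in blastema, 5.91 against 5.71 in systemically activated limb and 5.52 against 5.28 in intact limb. A fold of at least 5 was reached by 810 unplaced blastema peaks (16.7%, 15.7 to 17.8), against 9.53% on the arms and 9.74% of the whole list. The highest single arm, 14p, had 15.7%. In systemically activated limb 388 peaks (80.2%, 76.3 to 83.6) reached it, against 76.0% on the arms and 76.1% of the whole list. In intact limb 505 (68.9%, 65.4 to 72.2) did, against 62.3% on the arms and 62.5% of the whole list. The limb values lay within the range of the single arms. In the all-sample list 688 unplaced peaks (5.13%, 4.77 to 5.52) reached it, against 2.59% on the arms and 2.66% of the whole list. There 3 of the 28 single arms were above the unplaced share, the highest being 14p with 5.70%.

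The share at a fold of at least 5 differed with the extent of the sequence, and over 200 kb it was not above that of the arms. In blastema 44.1% (39.8 to 48.5) of the 519 peaks on extents of 5 to 20 kb had a fold of at least 5, against 7.67% (6.66 to 8.77) of the 2530 peaks on extents over 200 kb. Median background was 2.49 and 5.40 fragments per base in these classes, and median pileup 18 and 21 fragments. For systemically activated limb the shares were 92.5% (83.4 to 97.5) and 73.5% (67.7 to 78.8), and for intact limb 87.0% (78.8 to 92.9) and 62.0% (56.8 to 67.0). The arms had 9.53% in blastema, above the interval for extents over 200 kb, and 76.0% in systemically activated limb and 62.3% in intact limb, both inside it. Background was also lower near the start of long sequences: 37 blastema peaks in the first 10 kb of sequences over 200 kb had a median background of 2.86 fragments per base, against 5.46 for the 2493 peaks further in. Among peaks at the lowest background of the list, 37.9% (34.8 to 41.1) of unplaced blastema peaks had a fold of at least 5, against 21.8% (21.1 to 22.5) on the arms. Their median pileups were 15 and 14 fragments. In systemically activated limb it was 18 of 18 such peaks against 97.5% on the arms, in intact limb 86.2% (77.1 to 92.7) against 73.2%, and in the all-sample list 9.48% (8.55 to 10.5) against 3.56%. The part of the background in the fold difference was not tested.

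**Figure D3:**
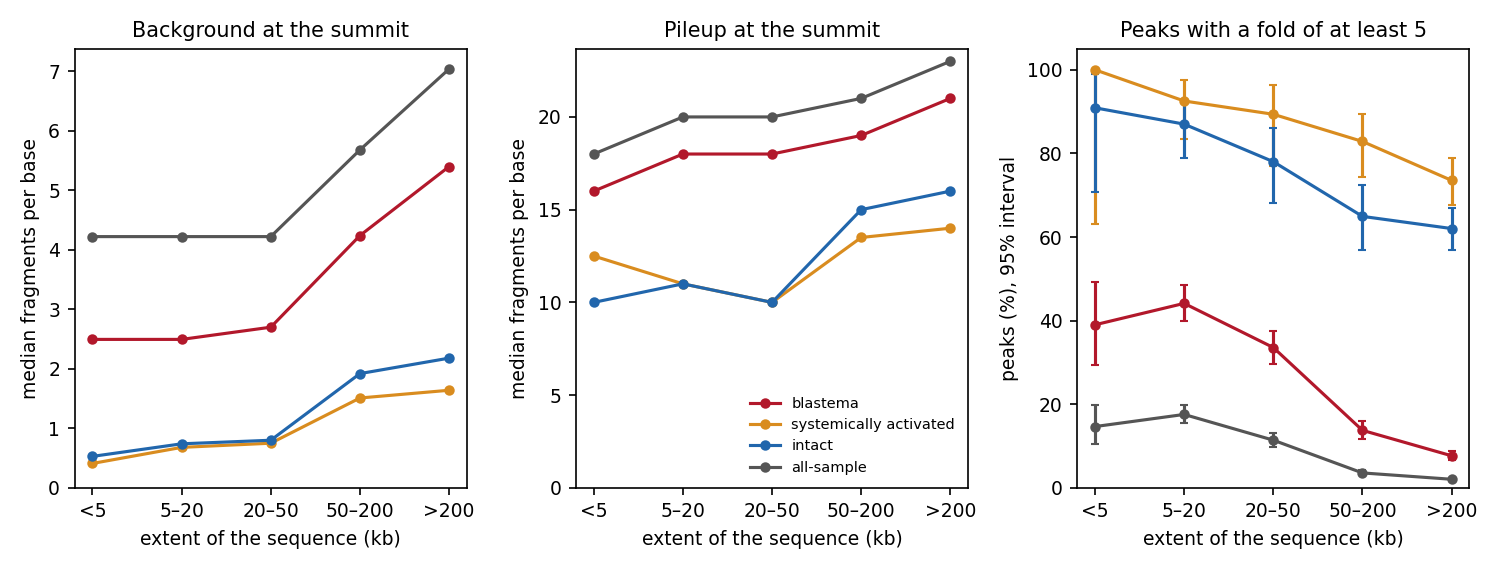
Median background (left) and median pileup (middle) at the summit, in fragments per base, and the percent of unplaced peaks with a fold of at least 5 (right, bars for exact 95% intervals), by the extent of the sequence in kb and by list. Background is lowest on short extents and highest over 200 kb in every list, where blastema has 5.40 fragments per base and a pileup of 21, and the share at a fold of at least 5 is lowest over 200 kb.

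In blastema, ranking by fold and ranking by pileup gave different shares. Among the 1684 blastema peaks of highest fold, the top 1%, 155 (9.20%, 7.87 to 10.7) were unplaced. Among the 1684 of highest pileup 55 were (3.27%, 2.47 to 4.23), close to the 2.88% of the list, and among the 1684 of highest −log10 q 87 were (5.17%, 4.16 to 6.33). In systemically activated limb 8 of the 173 of highest fold (4.62%, 2.02 to 8.91), 4 of those of highest pileup (2.31%, 0.633 to 5.81) and 5 by −log10 q (2.89%, 0.945 to 6.62) were unplaced. In intact limb the numbers out of 258 were 17 by fold (6.59%, 3.88 to 10.3), 7 by pileup (2.71%, 1.10 to 5.51) and 8 by −log10 q (3.10%, 1.35 to 6.02). The intervals overlap within each limb list, where fewer peaks were ranked. In the all-sample list, of the 4914 ranked first, 329 were unplaced by fold (6.70%, 6.01 to 7.43) and 146 by pileup (2.97%, 2.51 to 3.48). By −log10 q 203 were (4.13%, 3.59 to 4.73).

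The unplaced peaks of highest fold recurred from list to list. The first in blastema was on C0153377 (16662 to 17466), where the fold was 18.0 and the pileup 104 fragments. The same site had a fold of 15.5 and 34 fragments in systemically activated limb, and a fold of 18.8 and 47 fragments in intact limb, where it also ranked first. A site on C0207309 from 6136 to 6681 was among the 5 of highest fold in all 3 lists. Its fold was 16.2 in blastema (79 fragments), 12.8 in systemically activated limb (22 fragments) and 13.2 in intact limb (26 fragments). Both lay on sequences with an extent under 20 kb.

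The other blastema peaks among the first 5 were on C0183444 from 754 to 1310 (fold 17.2), C0192840 from 39708 to 40053 (fold 17.0) and C0211715 from 8955 to 9473 (fold 16.0). Both limb lists overlapped each of them, with folds of 9.59 to 10.8 in systemically activated limb and 9.30 to 13.1 in intact limb. In systemically activated limb the highest fold, 15.8, was on C0123164 from 18156 to 18483, with 79 fragments. The blastema peak there had 152 fragments and a fold of 9.49, and the intact peak 80 fragments and a fold of 12.7. The other entries of that list were C0147545 from 5003 to 5300 (fold 12.3) and C0137388 from 55120 to 55858 (fold 11.7). Intact limb added C0173104 from 2481 to 2739 (fold 14.6), C0124522 from 17634 to 18061 (fold 13.1) and the C0183444 site (fold 13.1). Every one of these sites had a peak in all 4 lists. Recurrence was not taken for the arm peaks of highest fold, so it cannot be read as a trait of unplaced peaks.

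Ranked by −log10 q, the leading unplaced blastema peaks shared with both limb lists included sites of high background. On C0165900 from 9354 to 10096 the pileup was 190 fragments on a background of 22.3 per base, and on C0137388 from 54761 to 55919 it was 193 on 24.4. The unplaced median background was 4.32. In systemically activated limb the same sites had 68 and 88 fragments, and in intact limb 98 and 110. The peak on C0198069 from 4170 to 4531 had 125 fragments in blastema, 26 in systemically activated limb and 36 in intact limb.

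The 5 leading blastema peaks all had limb partners, so any blastema peak without one ranks below them in fold. Among blastema peaks without a limb partner the first was on C0197261 from 55320 to 56194, with a fold of 14.0 and 48 fragments. It was followed by C0107641 from 26520 to 26781 (fold 12.0, 41 fragments) and C0153385 from 17878 to 18333 (fold 11.2, 38 fragments). C0144690 from 650 to 1126 and C0191565 from 41824 to 42143 each had a fold of 10.6 and 36 fragments. The sequences of these 5 had no limb peak at all. All 5 peaks stood on the lowest background of the blastema list, 2.49 fragments per base. Unplaced blastema peaks at that background had a median fold of 4.58 and a median pileup of 15 fragments. The part of the background in the 5 folds was not tested. Among limb peaks without a blastema partner the highest folds, each within its own list, were 7.27 in systemically activated limb, on C0176459 from 16929 to 17128 with 9 fragments, and 6.71 in intact limb, on C0008857 from 248956 to 249155 with 10 fragments. Next came C0048242 from 81898 to 82114 (fold 6.79) and C0136682 from 7784 to 7987 (fold 6.54) in systemically activated limb. In intact limb they were C0162753 from 15095 to 15353 (fold 6.63) and C0133473 from 34025 to 34240 (fold 6.54). The peaks on C0176459, C0136682 and C0133473 also stood on the lowest background of their own list.

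The sequence with the most peaks was C0013355, with 42 blastema, 6 systemically activated, 7 intact and 85 all-sample peaks between positions 37090 and 1348014. The median gap between its all-sample summits was 10037.5 bases. Blastema peaks overlapped 6 of the 6 systemically activated and 6 of the 7 intact peaks on it. All 3 lists shared 4 regions there. The strongest in systemically activated limb, from 271198 to 272082, had 39 fragments in blastema, 20 in systemically activated limb and 18 in intact limb. The one from 1093672 to 1094338 had 63 fragments in blastema, 17 in systemically activated limb and 23 in intact limb. The others ran from 376473 to 377271 and from 505306 to 505904.

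Only 5 of the 297 sequences with a region in all 3 lists had as many as 4 such regions. Besides C0013355 these were C0063827, C0006331, C0084840 and C0123164. On C0063827 the 4 regions had pileups of 48 to 76 fragments in blastema, 13 to 19 in systemically activated limb and 15 to 28 in intact limb. Here too pileups are comparable only within a list. C0123164 was the most compact, with all 4 between 2324 and 18486. Its pileups were high throughout, at 91 to 152 fragments in blastema, 24 to 79 in systemically activated limb and 33 to 80 in intact limb. Background was high there too. The blastema peak with 152 fragments stood on 15.1 per base, beside the unplaced median of 4.32. The other regions had blastema folds of 4.71, 4.22 and 4.08, beside an unplaced median of 3.81. C0006331 carried 13 blastema, 5 systemically activated and 6 intact peaks, and all 11 of its limb peaks were overlapped by a blastema peak.

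Peak numbers did not follow 1 order from list to list. C0007447 had 27 blastema peaks but 1 systemically activated and 0 intact peaks, and its limb peak, from 191599 to 191798, had 6 fragments. C0007441 had 7 blastema and 4 systemically activated peaks against 1 intact peak. That intact peak, from 24566 to 24958, had 21 fragments, and the systemically activated peak it overlapped had 23. C0005713 had the most intact peaks, 8, against 18 in blastema and 3 in systemically activated limb, and a blastema peak overlapped 4 of the 8. C0032080 had 34 blastema, 2 systemically activated and 3 intact peaks, with no overlap between its limb lists. It still had 1 merged region of all 3 lists, as merging can join peaks that share no base. These sequences were named for a high number of peaks in 1 or more of the lists, a choice that itself favours uneven numbers. Numbers this small in the limb lists carry wide counting error, and no test was made.

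**Figure D4:**
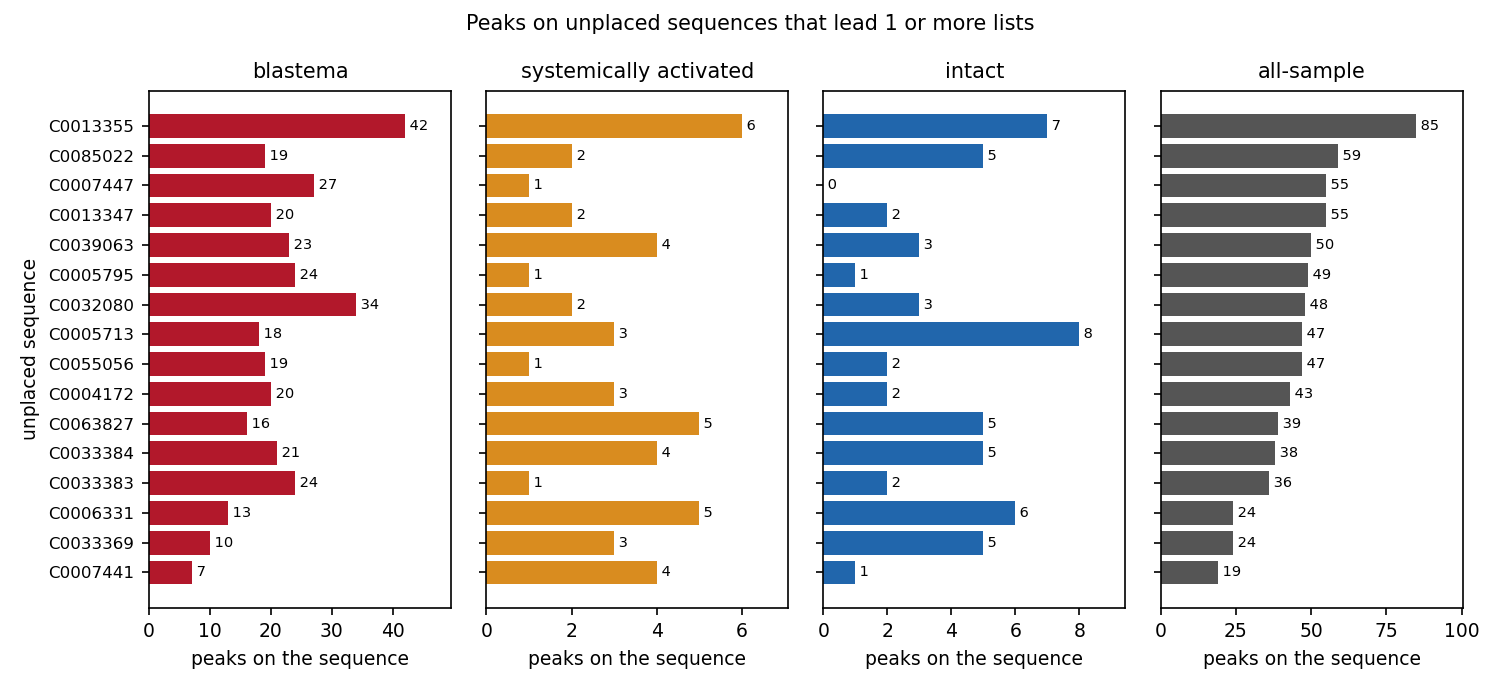
Number of peaks (x axis, a different scale in each panel) on 16 unplaced sequences, the 10 with the most all-sample peaks and the 5 with the most peaks in each group list, by list. C0013355 leads the blastema (42), systemically activated (6) and all-sample (85) panels, and C0005713 the intact panel (8).

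Among sequences rich in blastema peaks most also had limb peaks. Of the 63 with at least 10 blastema peaks, 49 had a systemically activated and 54 an intact peak. Of all 1854 sequences with a blastema peak, 372 (20.1%) had a systemically activated and 511 (27.6%) an intact peak. How much of this difference the number of peaks gives was not tested. The 6 of the 63 with no limb peak were C0003040 and C0016059 with 14 blastema peaks each, C0006329 with 12, C0018054 with 11, and C0007461 and C0011971 with 10 each. They were named after their values were seen.

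The all-sample list added 1430 sequences on which no group list had a peak. Of its 13403 unplaced peaks, 8845 (66.0%, 65.2 to 66.8) were in no group list, beside 67.9% on the arms. In all 3 group lists were 351 (2.62%, 2.36 to 2.90), beside 2.59% on the arms. The median pileup was 20 fragments for peaks in no group list, 27 for those in 1 list, 47 for those in 2 and 82 for those in 3. The all-sample list draws on the same samples as the group lists, so the lists are not independent. Conversely, 16 sequences had a peak in a group list and none in the all-sample list.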

How the data were processed

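Peaks were called from ATAC-seq of 7 samples. Per the submitters' processing notes, Bowtie2 2.3.2 was the aligner and MACS2 the peak caller. Not given in the sources used here are the MACS2 version, the genome build, the Tn5 shift, any control, and how duplicate or multiply mapped reads were handled. Each group's samples share 1 deposited list, so even the rough mark of depth is known per list only. For each peak the authors deposited a fold ratio, a −log10 p and q, and a score, the last not used. The deposited coordinates are printed 1-based, on the sequence names of the files.

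Pileup and background were solved from the deposited fold and −log10 p with the MACS2 formulas, within 0.001. The solver was checked on data simulated from the same formulas, which cannot show that the deposited values follow them. Simulated pileups and backgrounds did not reach the highest ones solved here. In the data 100% of blastema, 99.6% of systemically activated and 99.7% of intact unplaced peaks had 1 solution. Overlap meant at least 1 shared base. Intervals are Clopper-Pearson 95% (scipy 1.17.1, Python 3.11.15). Named peaks and sequences followed a rule on highest fold, −log10 q or number of peaks, giving 31 peak entries and 16 sequences. The members, lists and rules were chosen with earlier results of these data known, and extent classes after seeing the values. No genome of the files' build was used, so genes, repeats and base sequence were not analysed here.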

Additional observations from a re-analysis of the deposited data

How the results depend on the processing

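Of 56 values recomputed under the alternatives, 25 stayed within the 95% interval of the value reported. In 4 of these, merging intervals left every count as it was, since no intervals of a list overlapped, so it tested nothing. Counting bases and leaving out the sequence with the most peaks moved none outside it. With −log10 q 5 as a minimum, unplaced sequences held 3.19% of blastema and 3.16% of all-sample peaks. At a fold of at least 5 it was 4.94% in blastema, 3.13% in intact limb and 5.26% in the all-sample list. Overlap shares are given as blastema in systemically activated limb, blastema in intact limb, systemically activated limb in blastema, systemically activated limb in intact limb, intact limb in blastema, and intact limb in systemically activated limb. With 50% of each interval shared they were 3.46%, 6.99%, 34.7%, 54.5%, 46.2% and 36.0%. With −log10 q 5 as a minimum they came to 12.9%, 18.7%, 98.2%, 79.3%, 96.5% and 53.8%. With lists at equal length they were 56.8%, 63.1%, 68.8%, 65.5%, 72.6% and 61.4%, beside 63.3%, 68.2%, 66.9%, 66.4%, 70.7% and 64.8% on the arms. With the summit inside the other interval the first was 7.69%, the second 11.1%, the fourth 67.6% and the last 41.6%. Among the alternatives, overlap on the arms was taken at equal length only, so the other moves cannot be read as traits of unplaced peaks. The cause of all these moves was not tested. Alternatives chosen after seeing the data moved the share at a fold of at least 5. On extents over 200 kb it was 7.67% in blastema, 73.5% in systemically activated limb and 62.0% in intact limb. Without peaks at the lowest background it moved in blastema only, to 11.6%, beside 8.41% on the arms. It was then 79.3% in systemically activated limb and 66.5% in intact limb, beside 75.8% and 61.8% on the arms. Both limb values stayed within the interval of the value reported. Unplaced peaks rest on a median of 20 fragments in blastema, 13 in systemically activated limb and 14 in intact limb, and the effect of depth was not tested.

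No paired analysis was possible because each group has 1 pooled list with no values per sample. Leaving out a replicate was not run for the same reason.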
